A study of Bos taurus with 2 samples.

Results

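RSPO2 cells were cells of day 25 bovine embryos that held 2 or more UMIs of RSPO2, the gene of a secreted R-spondin, and UMIs of fewer than 3 of the neuronal genes TUBB3, DCX, ELAVL3, ELAVL4 and STMN2. A UMI is a molecular tag that counts a captured RNA molecule once. Of the 4437 deposited cells, 4359 had 500 or more detected genes, and 68 of these were RSPO2 cells. There were 28 in replicate 1 and 40 in replicate 2, which is 1.44% of the kept cells of replicate 1 (95% exact binomial interval 0.962 to 2.08) and 1.65% of those of replicate 2 (1.18 to 2.24), with a mean of 1.55% ± 0.148 (SD, n = 2). They were set against 1709 comparison cells (668 and 1041) of the same replicates: cells with 1 or more SOX2 UMIs, no RSPO2 UMI, fewer than 3 of the same neuronal genes, and a total UMI number within the range of the RSPO2 cells of that replicate.

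The embryos were recovered at day 25 and were chimeras that carried bovine embryonic stem cells. They were dissociated with papain and DNase, sorted by a gate that the labels leave unnamed, and loaded on a droplet system that tags the 3′ ends of RNA. Both samples belong to 1 group with no treatment or genotype contrast, so cell classes were compared within the same suspensions. The labels do not tie the replicates to different embryos, so every p-value below rests only on spread that may be technical. In the main test, which fits the replicate as a term, this is how far the class difference varied between the samples. It is moderated by the spread of other genes.

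R-spondins are secreted proteins that bind LGR4, LGR5 and LGR6 and draw the ubiquitin ligases ZNRF3 and RNF43 away from the cell surface, so that Frizzled and LRP receptors for WNT ligands stay in place and a cell answers more strongly to WNT. In the vertebrate neural tube the dorsal midline, or roof plate, is known as a source of WNT, BMP and R-spondin proteins and depends on the homeobox gene LMX1A. In the hindbrain and at the dorsal midline of the forebrain, roof plate derivatives give rise to the choroid plexus. The ventral midline, or floor plate, makes SHH under the control of FOXA2.

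The libraries held 11182089 and 15427708 UMIs. The summed RSPO2 cells held 181640 and 301028 UMIs, and single RSPO2 cells held 1894 to 11184 UMIs in replicate 1 (median 6078) and 685 to 13242 in replicate 2 (median 8114.5), against medians of 5549 and 6356 in comparison cells. The median share of UMIs from ribosomal protein genes was 4.18% and 17.2% in RSPO2 cells and 3.56% and 5.72% in comparison cells, so the classes lay further apart in replicate 2. The libraries shared 6 cell barcodes, none of them in an RSPO2 cell. A doublet caller marked 3 of the 4359 cells, none of them in either class, so doublets were hardly assessed.

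RSPO2, SOX2 and the 5 neuronal genes are the measured values the cells were chosen by, and they are given here as a description with no test. RSPO2 cells held 232 and 401 RSPO2 UMIs, or 1277 and 1332 UMIs per 1000000 UMIs of the summed cells (counts scaled in this way are written CPM), with medians of 6 and 5 UMIs per cell and maxima of 34 and 43. They held 80.6% and 83.5% of all RSPO2 UMIs in 1.62% and 1.95% of all UMIs. Neuronal cells, the 949 cells with 3 or more of the 5 neuronal genes (median depths 7284 and 8041 UMIs), held 38 and 62 RSPO2 UMIs, or 12.3 and 15.4 CPM. A further 8 cells, 4 per replicate, had 2 or more RSPO2 UMIs but 3 or more neuronal genes and were left out by the rule. SOX2, the transcription factor of neural progenitors that was asked only of the comparison cells, was found in 18 of 28 and 30 of 40 RSPO2 cells, at 330.3 and 442 CPM against 427 and 408 CPM. STMN2, a tubulin-binding protein of growing axons, stood at 182 and 581 CPM in RSPO2 cells, 109 and 120.0 CPM in comparison cells and 1531 and 1881 CPM in neuronal cells.

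The name progenitor was checked against marker lists. The 7 neural progenitor markers found in the table summed to 3925 and 4880 CPM in RSPO2 cells and 3080 and 3830 CPM in comparison cells, and each of them had UMIs in RSPO2 cells. That sum includes SOX2, which chose the comparison cells. VIM made up most of it, at 2230 and 2903 CPM against 1392 and 2217 CPM. HES5 was also higher, at 429 and 345 CPM against 125 and 120.0 CPM, with 33.5% of its UMIs in 1 cell. FABP7 stood at 60.6 and 96.3 CPM against 46.8 and 70.8 CPM. SOX1 stood at 16.5 and 66.4 CPM against 57.2 and 45.2 CPM, and neither FABP7 nor SOX1 passed the test. PAX6, a neural progenitor transcription factor, stood at 121 and 126 CPM against 164 and 109 CPM, and NES, an intermediate filament gene of progenitors, at 738 and 900.2 CPM against 868 and 860.3 CPM, neither of them past the test. The 8 neuron markers summed to 1789 and 2352 CPM against 890 and 819 CPM, a description only, since 5 of them are genes of the rule. MAP2, a microtubule protein of dendrites and the only tested marker of that list, was at 1464 and 1614 CPM against 593 and 533 CPM in comparison cells and 1471 and 1381 CPM in neuronal cells (log2 difference from comparison cells 1.6, SE 0.13; edgeR quasi-likelihood test, Benjamini-Hochberg adjusted p = 3.23e-06). MAP2 and STMN2 made up most of the neuron marker sum. DCX, a microtubule protein of young neurons, went the other way, at 27.5 and 26.6 CPM against 46.8 and 32.4 CPM. So did the RNA-binding protein gene ELAVL3, at 33.0 and 36.5 CPM against 75.0 and 56.9 CPM. TUBB3 was higher with overlapping replicates, at 49.5 and 56.5 CPM against 43.5 and 51.05 CPM. ELAVL4 was too, at 22.0 and 33.2 CPM against 19.6 and 22.5 CPM. ISL1 was higher on only 3 UMIs. NEUROD1 had no UMI, but only 27 in the whole series. Of the lists for other tissues, myeloid markers had no UMI, neural crest markers summed to 11 and 9.97 CPM with SOX10, FOXD3 and TFAP2A at 0, endothelial markers to 5.51 and 6.64 CPM, and mesenchyme markers to 82.6 and 69.8 CPM against 188 and 279 CPM. A gene with no UMI in the 482668 UMIs of the RSPO2 cells may still stand at up to 6.22 CPM (3 UMIs), by counting error alone. SOX10 and FOXD3 held only 4 UMIs each in the whole series.

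Across 11722 genes tested, 383 genes (3.27%) were higher and 152 (1.3%) lower in RSPO2 cells than in comparison cells, all of them in the same direction in both replicates. The test used edgeR on summed counts with the replicate as a block, and a gene passed at an adjusted p under 0.05. Without the block, 164 genes (1.4%) were higher and 61 (0.52%) lower. DESeq2 called 205 (1.75%) higher and 28 (0.239%) lower. In cells with a ribosomal protein share under 10%, edgeR called 134 (1.25%) higher and 38 (0.354%) lower, and in cells of 10% or more it called 129 (1.4%) higher and 64 (0.697%) lower. The median log2 difference of all genes tested was -0.01. Of the called genes, 224 were higher by a log2 difference of 1 or more and 132 lower by as much. In simulated counts the test recovered 76% of genes raised by a log2 difference of 1 but 18% of those lowered by as much. A list count of 0 lower below therefore carries less information than a count of 0 higher. The shares of 3.27% higher and 1.3% lower are the background for the list counts of the main test.

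**Figure D1:**
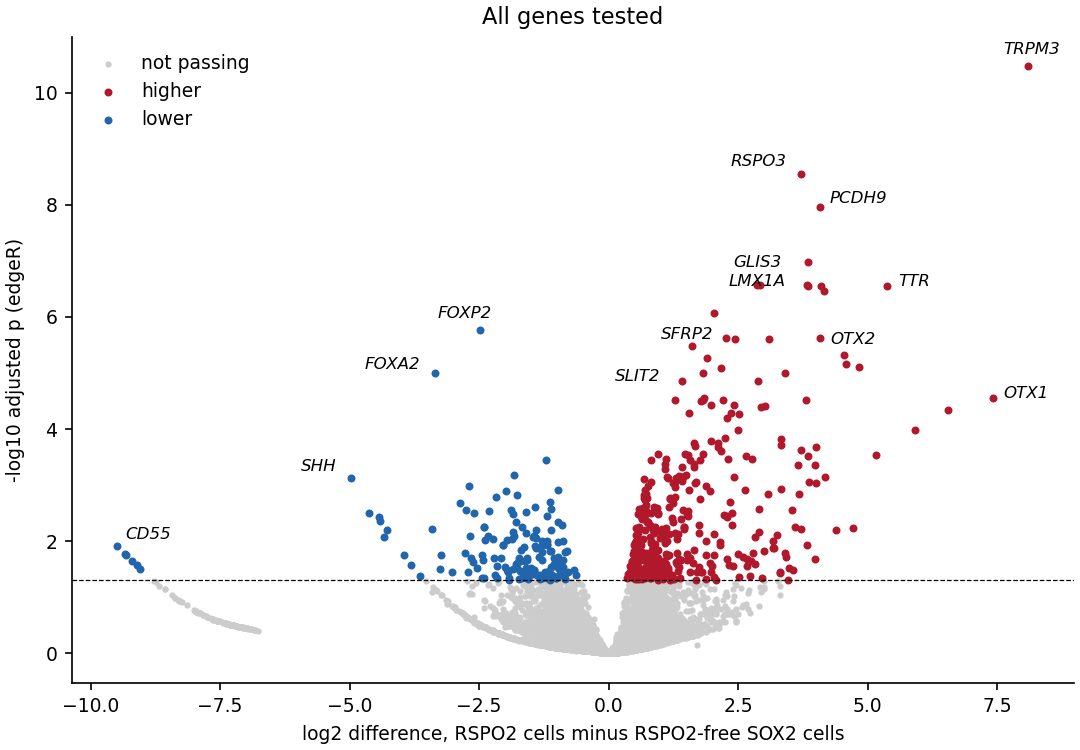
Each point is a gene tested. The x axis is the log2 difference of summed counts, RSPO2 cells minus comparison cells, and the y axis is −log10 of the adjusted p from edgeR; the dashed line is 0.05, red points were higher and blue points lower. TRPM3 has both the highest log2 difference and the lowest adjusted p, and the arc of points at the far left is genes with no UMI in RSPO2 cells, whose fitted differences are not interpretable as sizes.

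The other R-spondin genes were high in the same cells. RSPO3 stood at 1139.6 and 1189 CPM in RSPO2 cells, 101 and 95.5 CPM in comparison cells and 129 and 165 CPM in neuronal cells, and was found in 50 of 68 RSPO2 cells (log2 difference 3.71, SE 0.15; adjusted p = 2.88e-09). RSPO1 stood at 110.1 and 103 CPM against 8.39 and 8.24 CPM, in 24 of 68 cells (log2 difference 3.81, SE 0.38; adjusted p = 2.99e-05). Both replicates of RSPO2 cells lay above both replicates of comparison cells for each gene, by more than 10-fold. RSPO4 had no UMI in either class.

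Few genes on the receptor side of the pathway passed the test. Of 18 genes tested on the R-spondin and WNT receptor list, 3 were higher and 0 lower (5 and 1 at an unadjusted p under 0.05): RSPO3, RSPO1 and the WNT5A receptor ROR1, at 303 and 352 CPM against 237 and 191 CPM (log2 difference 0.79; adjusted p = 0.0249, and 0.101 without the block). LGR5, an R-spondin receptor, stood at 27.5 and 46.5 CPM against 65.6 and 51.8 CPM (log2 difference -0.41, SE 0.36; adjusted p = 0.614). LGR4, the more widely expressed receptor, stood at 99.1 and 126 CPM against 91.8 and 65.2 CPM (log2 difference 0.74, SE 0.27; adjusted p = 0.164), and LGR6 had no UMI in RSPO2 cells. LGR4 passed in cells with a ribosomal share of 10% or more (log2 difference 1.78, adjusted p = 0.0154) but not over all cells.

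The ligases that R-spondins act on and the WNT coreceptors also missed the threshold. ZNRF3 stood at 336 and 206 CPM against 315 and 287 CPM (log2 difference -0.06, SE 0.19), and RNF43 at 27.5 and 13.3 CPM against 11.4 and 10.9 CPM. LRP6 stood at 269.8 and 262 CPM against 329.7 and 291 CPM (log2 difference -0.07, SE 0.17) and LRP5 at 22.0 and 9.97 CPM against 33.8 and 23.4 CPM. Among Frizzled receptors, FZD3 was at 215 and 233 CPM against 272 and 231 CPM and FZD10 at 27.5 and 69.8 CPM against 21.9 and 22.2 CPM (log2 difference 1.36, SE 0.42; adjusted p = 0.0914). FZD4 had 1 UMI, FZD8 had 1, and FZD5 and FZD7 had none in RSPO2 cells. FZD1, FZD2, FZD6, FZD9, RYK and ROR2 lay between log2 differences of -0.72 and 0.95 and did not pass.

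WNT ligand genes formed the group with the largest share of members past the test among the signalling lists. Of 11 tested, 7 were higher and 0 lower, with a median log2 difference of 1.67. A rare gene entered the test if it was high enough in 1 class, so these counts lean towards genes high in RSPO2 cells. With no filter on low counts, 6 of 17 ligands tested were higher and 0 lower. The share of all genes called without that filter is not given here. WNT2B was at 77.1 and 93.0 CPM against 9.67 and 9.27 CPM (log2 difference 3.32, SE 0.40; adjusted p = 1.95e-04), in only 12 of 68 cells. WNT3A, a roof plate ligand of the canonical pathway, was at 143 and 223 CPM against 65.1 and 64.0 CPM (log2 difference 1.67, SE 0.24; adjusted p = 8.96e-04), in 33 cells. WNT9A was at 88.1 and 49.8 CPM against 4.07 and 4.85 CPM (log2 difference 3.98, SE 0.53; adjusted p = 4.45e-04). Every one of these 3 ligands lay outside the range of the comparison cells in both replicates.

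WNT8B was at 16.5 and 73.1 CPM against 3.31 and 5.30 CPM (log2 difference 3.53; adjusted p = 0.00274), a wider gap between the replicates than for the other ligands. WNT4 was at 38.5 and 36.5 CPM against 1.02 and 1.18 CPM (log2 difference 5.15, SE 0.65; adjusted p = 2.89e-04). WNT10B passed on 6 UMIs only (adjusted p = 0.0496) and lost the call under 5 of the alternative settings. WLS, the carrier that brings WNT proteins to the cell surface, was at 468 and 402 CPM against 255 and 241 CPM (log2 difference 0.94; adjusted p = 0.00308). WNT1, the best known ligand of the midbrain and dorsal neural tube, had no UMI, and WNT5A stood at 5.51 and 13.3 CPM against 27.0 and 23.4 CPM without passing. In cells with a ribosomal share under 10% only 1 of 6 ligands tested passed.

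Of 12 secreted WNT modulators tested, 3 were higher and 0 lower. SFRP2, which binds WNT proteins outside the cell, was at 347 and 352 CPM against 69.7 and 71.6 CPM (log2 difference 2.45, SE 0.19; adjusted p = 2.51e-06), in 29 cells. The WNT antagonist APCDD1 was at 154 and 126 CPM against 89.3 and 65.2 CPM (log2 difference 1.02; adjusted p = 0.0236, and 0.0856 without the block), and the glypican GPC6, a heparan sulphate proteoglycan, at 1035 and 1116 CPM against 769.7 and 594 CPM (log2 difference 0.82; adjusted p = 0.00319, and 0.228 without the block). The antagonists DKK1, DKK4, NOTUM and SFRP5 had no UMI in RSPO2 cells.

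Genes downstream of WNT receptors did not show the same pattern. Of 16 transcription targets and effectors tested, 0 were higher and 1 lower in edgeR, with 3 higher at an unadjusted p under 0.05, and DESeq2 called 0. AXIN2, the target most used as a readout of canonical WNT activity, stood at 27.5 and 56.5 CPM against 33.3 and 29.7 CPM, with overlapping replicates (log2 difference 0.65, SE 0.40; adjusted p = 0.448). LEF1, a nuclear partner of beta-catenin, was lower, at 49.5 and 56.5 CPM against 178 and 142 CPM (log2 difference -1.40, SE 0.27; adjusted p = 0.00885). SP5, another direct target, stood at 11 and 36.5 CPM against 4.83 and 5.44 CPM on 13 UMIs (log2 difference 2.44, SE 0.67; adjusted p = 0.0558). SP5 passed under 7 of the alternative settings, among them RLE size factors and the whole set of cells with 1 or more RSPO2 UMIs.

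**Figure D2:**
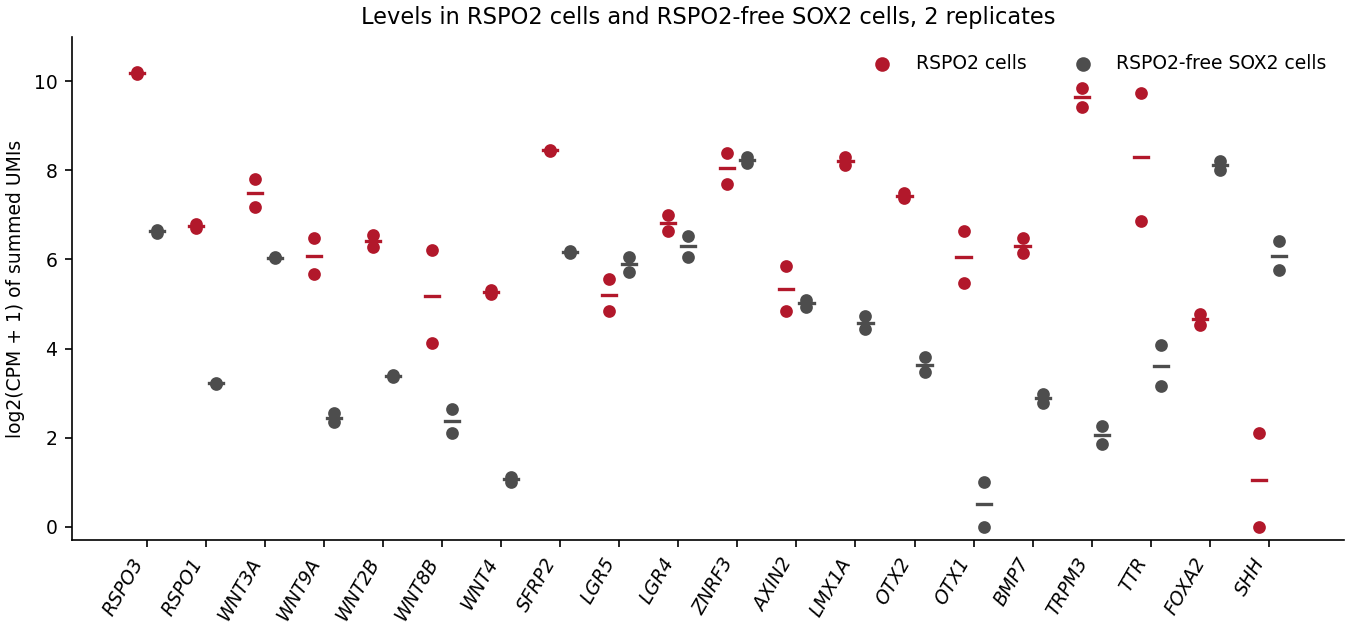
Points are the CPM of the summed cells of each replicate, on a log2 axis with 1 CPM added, for WNT pathway, roof plate, choroid plexus and floor plate genes; red is RSPO2 cells, grey is comparison cells, and short lines are means. RSPO3, RSPO1, the WNT ligands, SFRP2, LMX1A, OTX2, OTX1, BMP7, TRPM3 and TTR lie above the comparison cells in both replicates, FOXA2 and SHH lie below them, and ZNRF3 and AXIN2 overlap.

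Roof plate and dorsal neural tube genes were the list with the most members higher. Of 17 tested, 9 were higher and 0 lower, with a median log2 difference of 1.32 against -0.01 over all genes. The filter on low counts leans these counts towards genes high in RSPO2 cells here too. With no filter on low counts, 9 of 23 were higher and 1 lower. RSPO1, RSPO3 and WNT3A are on this list too. LMX1A, the homeobox factor of the roof plate, was at 275 and 312 CPM in RSPO2 cells, 25.4 and 20.7 CPM in comparison cells and 9.35 and 13.4 CPM in neuronal cells, in 42 of 68 cells (log2 difference 3.84, SE 0.24; adjusted p = 2.77e-07). Its relative LMX1B was at 44.0 and 29.9 CPM against 11.4 and 8.24 CPM (log2 difference 2.04; adjusted p = 0.0439, and 0.0563 without the block). BMP7, a roof plate signal, was at 88.1 and 69.8 CPM against 5.85 and 6.91 CPM (log2 difference 3.72, SE 0.46; adjusted p = 2.39e-04).

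The dorsal zinc finger genes ZIC2 and ZIC4 were higher by smaller amounts, ZIC2 at 347 and 266 CPM against 199.9 and 175 CPM (log2 difference 0.84; adjusted p = 0.0143) and ZIC4 at 176 and 252 CPM against 133 and 118 CPM (log2 difference 0.95; adjusted p = 0.0222). Without the block their adjusted p was 0.0667 and 0.0781. Other roof plate genes were not higher. MSX1, a BMP-induced homeobox gene, stood at 88.1 and 86.4 CPM against 79.9 and 68.6 CPM (log2 difference 0.39, SE 0.27; adjusted p = 0.505), and GDF7 and WNT1, which mark the roof plate in mouse, had no UMI in RSPO2 cells but only 2 and 5 in the whole series. The dorsal factor PAX3 stood at 110.1 and 43.2 CPM against 182 and 138 CPM (adjusted p = 0.0519). In the cells with a ribosomal share under 10%, 4 of 15 genes tested on this list were higher.

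Genes of the anterior neural tube were mixed in the same way. Of 10 forebrain factors tested, 3 were higher and 0 lower, and with no filter on low counts 3 of 18 were higher. OTX1, 1 of the 3, held only 4 UMIs in comparison cells and entered the test through the RSPO2 cells. This count therefore leans towards genes high in RSPO2 cells. OTX2, a homeobox gene of forebrain, midbrain and choroid plexus, was at 165 and 179 CPM against 13.0 and 10.2 CPM, in 38 of 68 cells (log2 difference 4.07, SE 0.31; adjusted p = 2.33e-06). OTX1 was at 99.1 and 43.2 CPM against 1.02 and 0 CPM, and the RSPO2 cells held 57.4% of the OTX1 UMIs of the series, 31 of 54 (log2 difference 7.42, SE 0.72; adjusted p = 2.75e-05). SIX6 was at 93.6 and 36.5 CPM against 16.5 and 13.4 CPM (log2 difference 2.14; adjusted p = 0.0104). SIX3 and RAX, which mark the anterior forebrain and eye field, had no UMI in RSPO2 cells but only 8 and 1 in the whole series. EN1 and EN2 of the midbrain had none either, but only 8 and 38 in the whole series, so these absences carry little information. LMX1B, above, was the only 1 of 5 midbrain and isthmus factors to pass. Of 4 HOX genes tested 0 passed edgeR or DESeq2, 0 of them at an unadjusted p under 0.05, with HOXA2 at 27.5 and 26.6 CPM against 32.3 and 33.0 CPM.

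TRPM3, a calcium-permeable channel known from choroid plexus and eye epithelia that hosts a microRNA gene, separated the RSPO2 cells most. It stood at 925 and 688 CPM in RSPO2 cells, 3.82 and 2.65 CPM in comparison cells and 7.09 and 7.22 CPM in neuronal cells. RSPO2 cells held 375 of its 516 UMIs in the series (72.7%), in 37 of 68 cells (log2 difference 8.09, SE 0.22; adjusted p = 3.37e-11). A single cell of replicate 1 held 22.9% of the UMIs; without it replicate 1 stood at 477 CPM, still far above the comparison cells.

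TTR, the thyroid hormone carrier made by choroid plexus, liver and yolk sac, depended far more on single cells. It stood at 116 and 850.4 CPM against 7.89 and 15.9 CPM, in 14 of 68 cells (log2 difference 5.38, SE 0.34; adjusted p = 2.81e-07). A cell of replicate 2 held 157 of the 277 UMIs, and without it replicate 2 stood at 333 CPM. Without the replicate block the adjusted p was 0.207. The endoderm marker list, to which TTR belongs, summed to 215 and 1086 CPM against 139 and 228 CPM, but to 99.1 and 236 CPM against 131 and 212 CPM without TTR, and AFP and EPCAM had no UMI.

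Further choroid plexus genes were looked up after TRPM3, TTR and OTX2 had been seen, so they are given as a description. CLIC6, a chloride channel protein, stood at 49.5 and 69.8 CPM against 7.63 and 6.03 CPM. KCNJ13, a potassium channel, stood at 27.5 and 36.5 CPM against 4.83 and 5.44 CPM, with 8 of its 16 UMIs in 1 cell. SULF1, a sulphatase that edits heparan sulphate, stood at 495 and 508 CPM against 128 and 106 CPM. CA12, a carbonic anhydrase, had 1 UMI, against 12.2 and 8.97 CPM in comparison cells, and ENPP2, a secreted lysophospholipase, had 2 in 1 cell; neither passed. KL, SLC4A5, PRLR, HTR2C, FOXJ1 and KCNE2 had no UMI, but they held only 6 to 34 UMIs each in the whole series, so their absence carries little information. AQP1 had 1 UMI, and FOLR1 had 2 of its 5 UMIs in the series and 0 in comparison cells.

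Other genes with large differences came from several gene families. GLIS3, a zinc finger transcription factor, was at 369 and 372 CPM against 31.0 and 26.3 CPM, in 36 cells (log2 difference 3.85, SE 0.21; adjusted p = 1.07e-07). ADAMTS3, a procollagen and VEGFC protease, was at 639 and 684 CPM against 73.3 and 37.2 CPM, in 43 cells (log2 difference 3.83, SE 0.23; adjusted p = 2.73e-07). DLK1, an imprinted Notch-like protein, was at 138 and 109.6 CPM against 6.61 and 3.38 CPM (log2 difference 4.83, SE 0.41; adjusted p = 7.86e-06). Each of these 3 genes was more than 8-fold above the comparison cells in both replicates.

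IGFBP6, an IGF-binding protein, was at 82.6 and 159 CPM against 3.82 and 7.21 CPM, and SPARCL1, a matricellular protein, at 242 and 409 CPM against 22.1 and 18.8 CPM. RBM47, an RNA-binding protein of epithelia, was at 60.6 and 83.0 CPM against 4.83 and 5.15 CPM, and the pentraxin PTX3 at 82.6 and 63.1 CPM against 4.83 and 5.88 CPM. Their log2 differences lay between 3.84 and 4.59. PPARGC1A, a coactivator of mitochondrial genes, was at 159.7 and 438 CPM against 30.8 and 31.0 CPM (log2 difference 3.41; adjusted p = 9.81e-06). ZNF521, a zinc finger factor of early neural cells, was at 1189 and 1375 CPM against 371 and 323 CPM, in 58 of 68 cells (log2 difference 2.04, SE 0.14; adjusted p = 8.36e-07).

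Some of the higher genes are also neuronal. PCDH9, a protocadherin, was at 539.5 and 565 CPM against 36.6 and 36.0 CPM in comparison cells and 1768 and 1191 CPM in neuronal cells (log2 difference 4.07, SE 0.18; adjusted p = 1.09e-08). It was found in 25 cells, a cell of replicate 1 held 26.9% of its UMIs, and replicate 1 stood at 147 CPM without that cell. LINGO2, a neuronal leucine-rich repeat protein, was at 253 and 425 CPM against 22.9 and 21.2 CPM and 262 and 144 CPM in neuronal cells (adjusted p = 2.77e-07, and 0.55 against comparison cells matched on ribosomal share). KCNC2, a potassium channel, was at 187 and 452 CPM against 19.8 and 12.1 CPM (adjusted p = 4.86e-06, and 0.182 against comparison cells matched on total UMIs). CADM2, a synaptic adhesion protein, was at 606 and 595 CPM against 105 and 79.6 CPM and 923 and 585 CPM in neuronal cells. MAP2, given above, was higher in RSPO2 cells as well, and the part of neuronal RNA in these differences was not tested.

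Shares of cells with a UMI were compared for the genes that follow. Cells were thinned to 3000 UMIs, which left out 6 and 6 RSPO2 cells, 84 and 160 comparison cells and 51 and 49 neuronal cells. TRPM3 was found in 50% and 44.1% of thinned RSPO2 cells (53.6% and 55.0% unthinned), 1.03% and 0.568% of comparison cells and 2.11% and 2.34% of neuronal cells. RSPO3 was found in 68.2% and 73.5% (75.0% and 72.5% unthinned), against 13.2% and 11.8% of comparison cells and 13.7% and 16.4% of neuronal cells. LMX1A was found in 45.5% and 44.1% (67.9% and 57.5% unthinned), against 4.28% and 4.54% of comparison cells and 2.38% and 2.34% of neuronal cells. These 3 genes were named for their large differences in the same cells, so their shares are a description and add no separate support. Their exact 95% intervals in RSPO2 cells and comparison cells did not overlap in either replicate. The intervals cover counting error alone and treat single cells as independent. SFRP2 was less clear in shares, with 27.3% and 29.4% of thinned RSPO2 cells (10.7 to 50.2 and 15.1 to 47.5) against 16.1% and 15.4% of comparison cells (13.2 to 19.3 and 13.1 to 18.0).

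RSPO3, TRPM3 and LMX1A were each common in RSPO2 cells, in 50, 37 and 42 of 68, and rarer in comparison cells. Their joint detection is a description, and whether it exceeded what these shares and cell depth would give was not tested. All 3 had a UMI in 27 of 68 RSPO2 cells (10 and 17) and in 3 of 1709 comparison cells. RSPO3 and LMX1A met in 38 RSPO2 cells and 75 comparison cells, and RSPO3 and TRPM3 in 33 and 5. None of the 3 was found in 13 RSPO2 cells, so the class was not uniform.

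**Figure D3:**
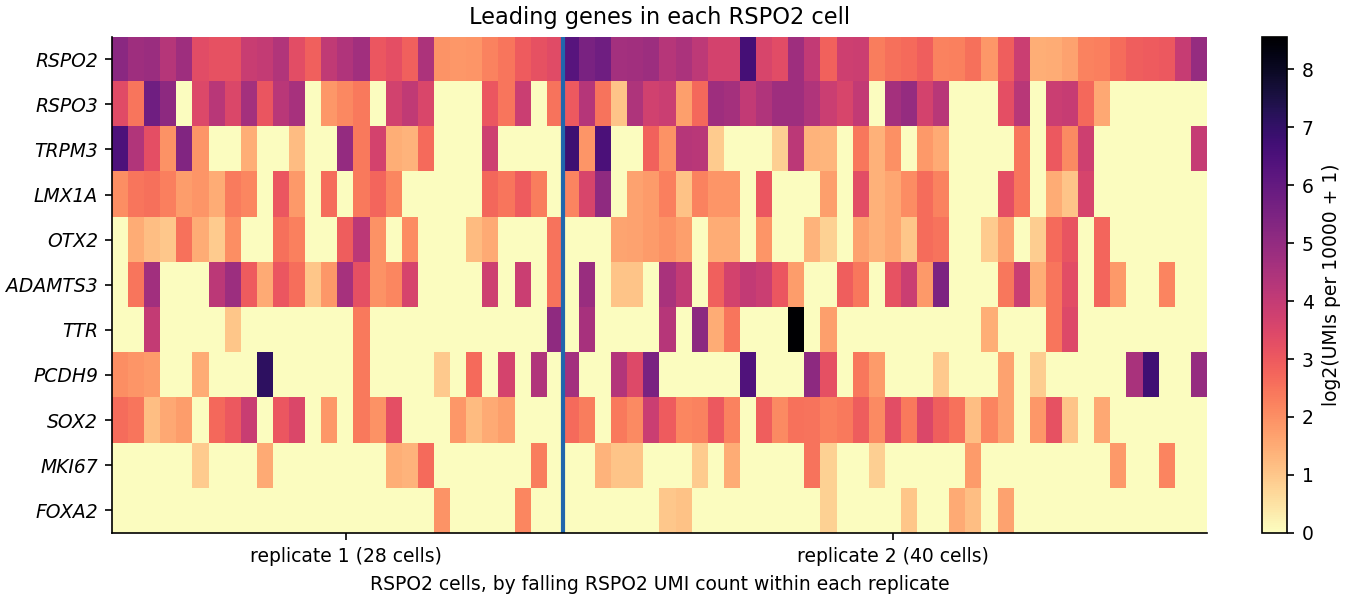
Each column is an RSPO2 cell (28 of replicate 1 to the left of the blue line, 40 of replicate 2 to the right), ordered by RSPO2 UMI number from high to low within a replicate; rows are genes and colour is log2 of UMIs scaled to a common cell depth, plus 1. RSPO3, TRPM3 and LMX1A fill most columns at the high end of each replicate, TTR is concentrated in 1 cell of replicate 2, and FOXA2 has UMIs in 9 columns.

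RSPO2 cells differed among themselves with their RSPO2 count, and the cells with 2 RSPO2 UMIs were also the shallowest. The 34 cells with 1 RSPO2 UMI, just outside the rule, had TRPM3 at 145 and 80.7 CPM and RSPO3 at 373 and 296 CPM. The 18 cells with exactly 2 UMIs, just inside it, had TRPM3 at 215 and 331 CPM and RSPO3 at 338 and 558 CPM, nearer to the cells just outside the rule than to those with the highest counts. The 22 cells with 10 or more UMIs had TRPM3 at 2529 and 1299 CPM and RSPO3 at 1851 and 1553 CPM. SFRP2 stood at 62.1 and 44.8 CPM with 1 UMI, 30.8 and 52.3 CPM with 2 and 586 and 619.8 CPM with 10 or more. Cells with 1 UMI also held FOXA2 at 62.1 and 314 CPM, against 0 and 14.9 CPM in cells with 10 or more. Median depths were 4405 and 3892 UMIs for cells with 2 RSPO2 UMIs and 10005 and 8974.5 for cells with 10 or more, and their median ribosomal shares were 3.73% and 2.88% against 18.4% and 19.4%; the part of depth and of ribosomal share was not tested.

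**Figure D4:**
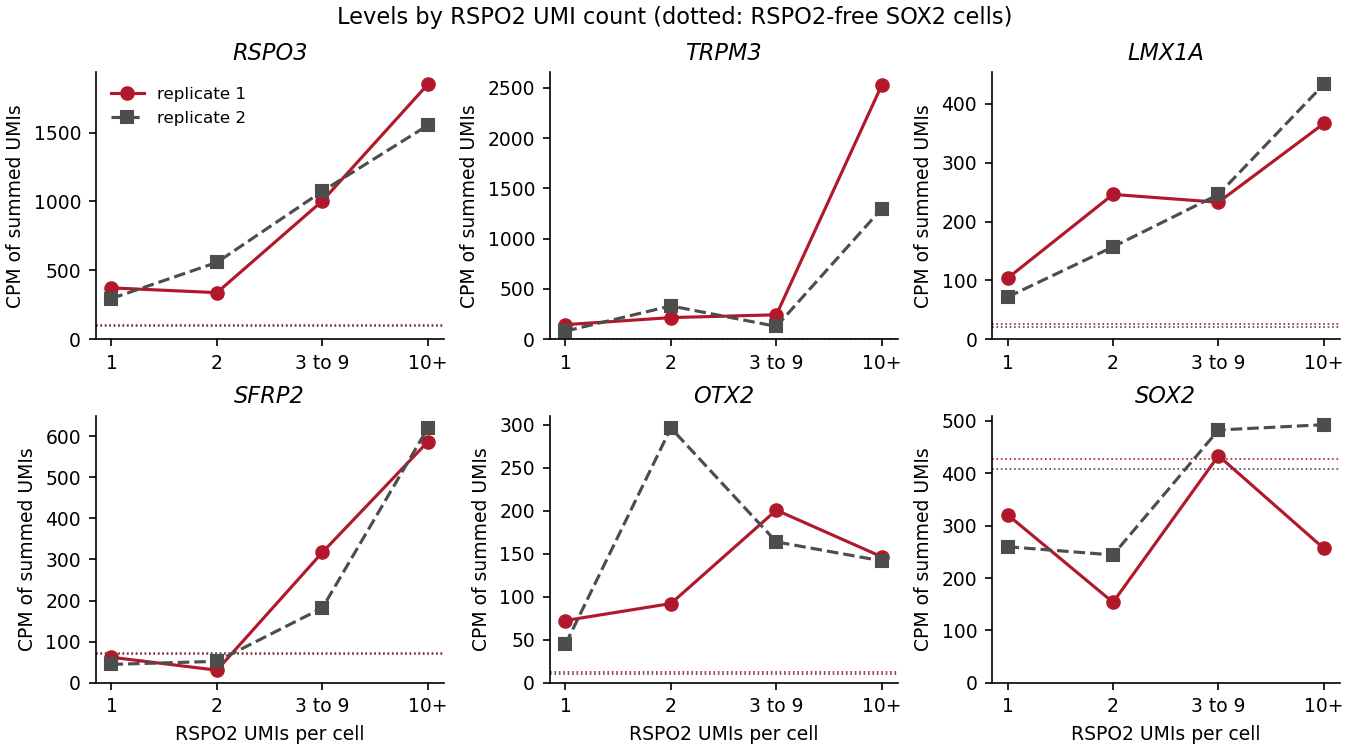
Panels show the CPM of summed cells by the number of RSPO2 UMIs per cell (1, outside the rule, then 2, 3 to 9, and 10 or more) in replicate 1 (red circles) and replicate 2 (grey squares); dotted lines are the comparison cells. RSPO3, SFRP2, LMX1A and TRPM3 are highest in both replicates in cells with 10 or more RSPO2 UMIs, while SOX2 and OTX2 show no common order in the replicates.

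The 20 RSPO2 cells without a SOX2 UMI, 10 in each replicate, were set beside those with SOX2 as a description. PCDH9 was at 1437 and 1681 CPM in them against 143 and 439.6 CPM in the 48 cells with SOX2, but a cell of replicate 1 held 72 of its 80 UMIs there and a cell of replicate 2 held 31 of 51. Without these cells PCDH9 stood at 159 and 729.9 CPM, so in replicate 1 the difference rested on 1 cell. RSPO3 was at 593 and 395 CPM against 1381 and 1278 CPM. TRPM3 stood at 251 and 2208 CPM without SOX2 against 1222 and 517 CPM with it, but a cell of replicate 2 held 58 of the 67 UMIs there. Without the top cell of each replicate, TRPM3 in cells without SOX2 stood at 94.9 and 377 CPM, so the order in replicate 2 turned on 1 cell. The cells without SOX2 were shallower, with median depths of 4152 and 2885 UMIs against 7184.5 and 9509. With RSPO2 cells limited to those with SOX2, 372 genes were higher and 238 lower.

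On the lower side were 2 genes of the ventral midline. SHH, the floor plate signal, had 1 UMI in RSPO2 cells and 783 in comparison cells, or 53.2 and 84.4 CPM, which is 35.2-fold lower (95% counting interval 6.30 to 1393) in RSPO2 cells (adjusted p = 7.33e-04). FOXA2, the floor plate forkhead factor, was at 22.0 and 26.6 CPM against 258 and 294 CPM (log2 difference -3.35, SE 0.30; adjusted p = 1.01e-05). Of 8 floor plate and ventral genes tested, 0 were higher and these 2 lower. NTN1, a guidance cue of the floor plate, stood at 5.51 and 76.4 CPM against 75.8 and 78.7 CPM with overlapping replicates.

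Many comparison cells carried these genes, since FOXA2 was found in 33.4% and 41.4% of them after thinning, against 4.55% and 14.7% of RSPO2 cells and 19% and 15.3% of neuronal cells. The comparison was therefore repeated, as an alternative chosen after seeing the data, with the 365 and 496 comparison cells that held no FOXA2 or SHH UMI: 831 genes (7.83%) were higher and 388 (3.66%) lower, 347 and 115 of them shared with the calls of all genes higher in RSPO2 cells than in RSPO2-free SOX2 cells and of those lower.

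FOXP2, a forkhead repressor, was at 121 and 123 CPM against 706 and 797 CPM (log2 difference -2.49, SE 0.18; adjusted p = 1.74e-06). ADAMTS18, an extracellular protease, had 1 UMI and was 28.1-fold lower (95% counting interval 5.03 to 1112). ADAMTS20, of the same family, had 1 UMI and was 23.7-fold lower (95% counting interval 4.24 to 938). SPHKAP, an anchoring protein of protein kinase A, CATHL5, a cathelicidin, and ARHGAP11A, a gene of dividing cells, had 1 UMI each in RSPO2 cells, against 538, 515 and 485 in comparison cells. The interval of a ratio on 1 UMI is wide, and its lower end lay between 3.90-fold and 6.30-fold for the 6 genes with 1 UMI.

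A further 6 of the most separated genes had no UMI in RSPO2 cells, so that only a bound can be given. CD55, which protects cells from complement, stood at 31.5 and 32.2 CPM in comparison cells and was at least 5.14-fold lower. DNA2, a nuclease and helicase of DNA replication, was at least 4.66-fold lower, and KIF18B, a mitotic kinesin, at least 4.59-fold lower. CALN1, a calcium-binding protein, was at least 4.2-fold lower, HPSE2, a heparanase relative, at least 3.91-fold lower and SIDT1 at least 3.79-fold lower. These bounds count 3 UMIs over the RSPO2 cells of both replicates. Without the block the adjusted p was 0.0828 for CATHL5, 0.0736 for HPSE2 and 0.0809 for SIDT1.

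Some cell cycle genes were lower and 0 were higher. Of 25 G2 and M phase genes tested, 8 were lower and 0 higher, with a median log2 difference of -1.29, and of 25 S phase genes 3 were lower and 0 higher, with a median of -0.61; the other 39 did not pass. At an unadjusted p under 0.05, 19 and 11 were lower and 0 higher, and DESeq2 also called 0 higher. ASPM, a spindle pole protein, was at 11 and 19.9 CPM against 139.9 and 105 CPM (log2 difference -2.70, SE 0.40; adjusted p = 0.00101). KIF23, a kinesin of cytokinesis, was at 60.6 and 66.4 CPM against 213 and 148 CPM (log2 difference -1.29; adjusted p = 0.0115), and CDK1, the mitotic kinase, at 22.0 and 6.64 CPM against 64.6 and 46.8 CPM (log2 difference -1.96; adjusted p = 0.033, and 0.092 without the block). CLSPN, a replication checkpoint protein, was at 27.5 and 16.6 CPM against 82.9 and 61.5 CPM (adjusted p = 0.0296, and 0.0793 without the block). MKI67, the usual proliferation marker, stood at 33.0 and 49.8 CPM against 121 and 92.4 CPM and did not pass (log2 difference -1.12, SE 0.32; adjusted p = 0.0684).

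Cells with no UMI of MKI67, TOP2A, CDK1, CENPF, CCNB1 and CCNB2 made up 42.9% and 37.5% of RSPO2 cells and 28.9% and 34.6% of comparison cells. The cell cycle calls varied with the setting. DESeq2 called 1 G2 and M gene and 0 S phase genes lower, with 14 and 6 at an unadjusted p under 0.05. In cells with a ribosomal share of 10% or more, edgeR called 0 of 24 genes tested on either list, with 5 G2 and M genes and 4 S phase genes lower at an unadjusted p under 0.05. Against comparison cells without FOXA2 or SHH, 17 of 25 G2 and M genes were lower.

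Of 12 hedgehog genes tested, SHH was lower and GAS1, a coreceptor, was higher, at 27.5 and 49.8 CPM against 12.5 and 11.9 CPM (log2 difference 1.87; adjusted p = 0.0467, and 0.0604 without the block). The receptor PTCH1, itself a target of the pathway, stood at 193 and 133 CPM against 198 and 168 CPM with overlapping replicates, and GLI1 had 1 UMI. The coreceptor CDON stood at 237 and 143 CPM against 132 and 109.9 CPM (log2 difference 0.75; adjusted p = 0.0685) and the transcription factor GLI3 at 193 and 269 CPM against 412 and 295 CPM, neither of them past the test.

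Of 17 Notch genes tested, 1 was higher and 1 lower, beside 3.27% and 1.3% of all genes tested. HES5, a Notch target of neural progenitors, was at 429 and 345 CPM against 125 and 120.0 CPM (log2 difference 1.79, SE 0.18; adjusted p = 3.14e-05), in 21 cells. The ligand JAG1 was lower, at 27.5 and 33.2 CPM against 133 and 90.2 CPM (log2 difference -1.64; adjusted p = 0.0125). A cell of replicate 1 held 61 of the 182 HES5 UMIs (33.5%), and without it replicate 1 stood at 96.7 CPM, below the comparison cells. Neither gene passed within the cells of low or of high ribosomal share, DESeq2 did not call JAG1, and HES1, another target, stood at 110.1 and 109.6 CPM against 175 and 156 CPM.

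Against a background of 3.27% higher and 1.3% lower, 3 of 28 BMP and TGF-beta genes tested were higher and 3 lower. Beside BMP7, these were BAMBI, a decoy receptor, at 105 and 189 CPM against 37.6 and 31.3 CPM (log2 difference 2.29; adjusted p = 3.43e-04), and the BMP target ID3 at 809 and 907 CPM against 547 and 689 CPM (log2 difference 0.62; adjusted p = 0.0147). FST, an activin antagonist, was lower, at 16.5 and 9.97 CPM against 76.6 and 71.6 CPM (log2 difference -2.41; adjusted p = 0.00562). The inhibitor SMAD6 and the target ID4 were lower too, SMAD6 by a log2 difference of -1.17 and ID4 by -0.63. Without the block, the adjusted p was 0.364 for ID3, 0.103 for SMAD6 and 0.317 for ID4. DESeq2 called 3 genes of the list higher and 0 lower, with 3 lower at an unadjusted p under 0.05.

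Of 20 FGF genes tested, FGFR2, a receptor, and ETV1, a transcription factor downstream of FGF, were higher and 0 lower, with FGFR2 at 231 and 223 CPM against 109 and 96.9 CPM (log2 difference 1.29; adjusted p = 0.00162) and ETV1 at 71.6 and 106 CPM against 53.4 and 31.9 CPM (adjusted p = 0.0335, and 0.0986 without the block). Of 9 retinoic acid genes tested, CRABP1, a retinoic acid-binding protein, was lower, at 187 and 219 CPM against 402 and 479.7 CPM (log2 difference -0.98; adjusted p = 0.00445). Without the block its adjusted p was 0.0913.

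**Figure D5:**
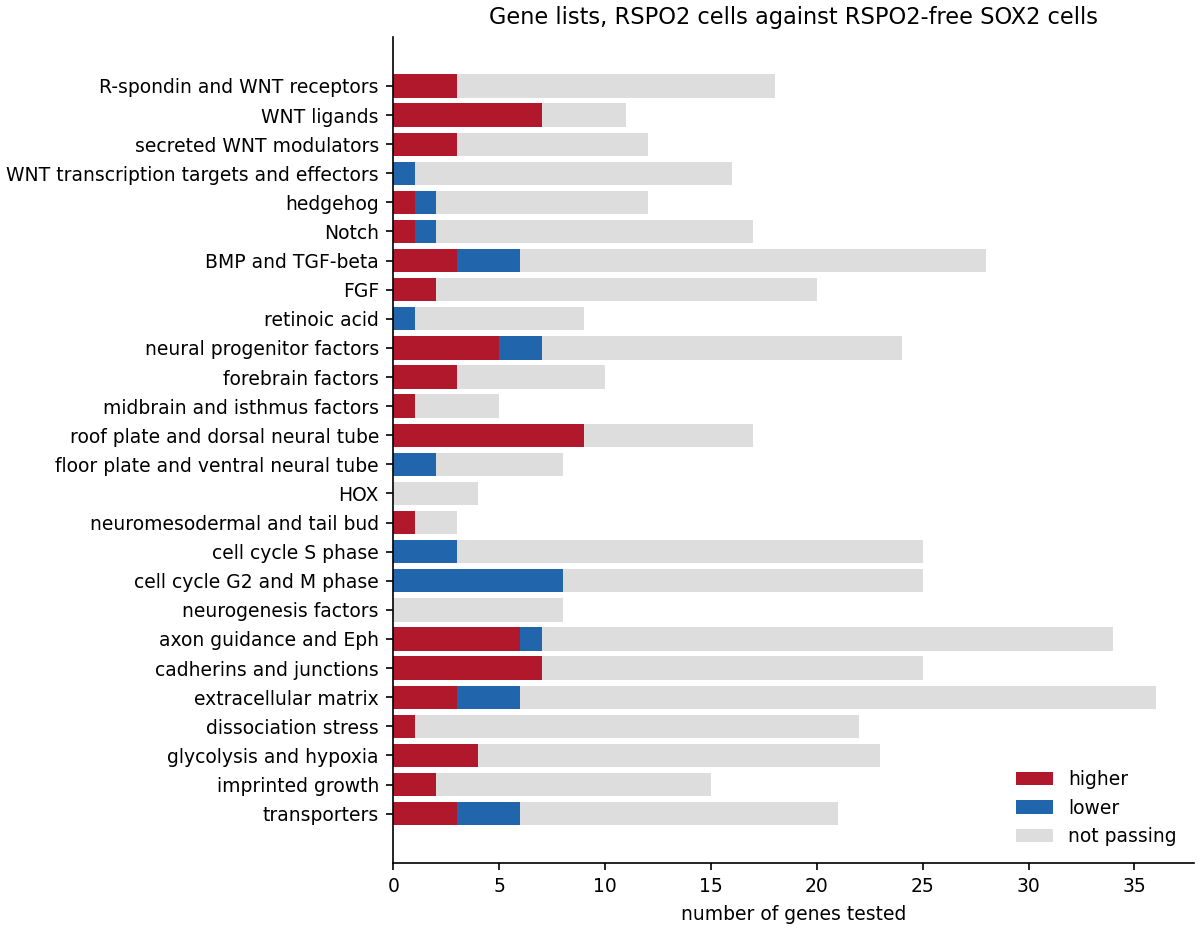
Bars give the number of genes tested on each list, split into higher (red), lower (blue) and not passing (grey) in RSPO2 cells against comparison cells. Roof plate genes have 9 of 17 and WNT ligands 7 of 11 higher, G2 and M phase genes have 8 of 25 lower, and HOX and neurogenesis factors have none in either direction.

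Of 24 neural progenitor factors tested, 5 were higher and 2 lower. The transcription factor NFIA, known for the onset of gliogenesis, was at 826 and 870.4 CPM against 379.5 and 497 CPM (log2 difference 1.10, SE 0.14; adjusted p = 3.42e-04), and its relative NFIB at 171 and 229 CPM against 114 and 121 CPM (log2 difference 0.92). SOX5, VIM and CDH2 were higher by log2 differences of 0.88, 0.67 and 0.61. SOX6 was lower, at 132 and 143 CPM against 284 and 312 CPM, and POU3F1 was lower on 1 UMI. Of these 7 calls, 0 passed in edgeR without the block, where 3 list members were higher and 2 lower at an unadjusted p under 0.05, and DESeq2 called 4 list members higher. Of 8 neurogenesis factors tested 0 passed edgeR or DESeq2, with 1 lower at an unadjusted p under 0.05 in edgeR and 0 in DESeq2.

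Axon guidance genes were mostly not different, but 6 of 34 tested were higher and 1 lower. SLIT2, a repellent made by midline cells, was at 1206 and 1551 CPM against 564 and 580.2 CPM, in 60 of 68 cells (log2 difference 1.41, SE 0.13; adjusted p = 1.41e-05). SLIT3 was at 209 and 189 CPM against 73.8 and 66.5 CPM (log2 difference 1.65; adjusted p = 4.21e-04), and the SLIT receptor ROBO1 at 440.4 and 395 CPM against 265 and 246 CPM (log2 difference 0.85; adjusted p = 0.00637, and 0.0637 without the block). The netrin-related NTNG1 was at 292 and 266 CPM against 129 and 103 CPM, and the netrin receptors DCC and UNC5B were higher by log2 differences of 1.74 and 1.22. The adjusted p of UNC5B was 0.0872 without the block. DCC lost its call when comparison cells had no limit on neuronal genes (log2 difference 0.14, adjusted p = 0.881). The Eph receptor EPHA4 was lower, at 82.6 and 43.2 CPM against 193 and 105 CPM (log2 difference -1.11; adjusted p = 0.0283, and 0.183 without the block).

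Of 25 cadherin and junction genes tested, 7 were higher and 0 lower. Apart from PCDH9 and CDH2 these were CDH6, CDH11, PCDH7, CTNNA2 and CTNND2, with CDH6 at 259 and 266 CPM against 91.3 and 92.8 CPM (log2 difference 1.65; adjusted p = 1.76e-04) and PCDH7 at 468 and 302 CPM against 187 and 177 CPM (log2 difference 1.18; adjusted p = 0.00167). Without the block CDH2, CDH11, CTNNA2 and CTNND2 did not pass, at adjusted p of 0.363, 0.109, 0.056 and 0.49. CLSTN2, a synaptic cadherin relative that was not on the list, was at 562 and 412 CPM against 76.3 and 63.6 CPM (log2 difference 2.92; adjusted p = 2.73e-07). Of 36 matrix genes tested, 3 were higher and 3 lower, beside 3.27% and 1.3% of all genes tested. FREM1, a basement membrane protein of epithelia, was at 264 and 618 CPM against 118 and 100.2 CPM (log2 difference 2.17; adjusted p = 2.45e-04, and 0.0752 with 3 or more RSPO2 UMIs), while its relative FREM2 was lower, at 5.51 and 36.5 CPM against 87.3 and 92.4 CPM (log2 difference -1.76; adjusted p = 0.0294, and 0.109 without the block). The fibrillar collagen gene COL3A1 was lower, at 11 and 23.3 CPM against 85.7 and 111 CPM.

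Of 21 transporter genes tested, 3 were higher and 3 lower, beside 3.27% and 1.3% of all genes tested. The glutamate transporter SLC1A3 was at 176 and 133 CPM against 76.3 and 51.8 CPM (log2 difference 1.43; adjusted p = 0.00273), and the endocytic receptor LRP2 at 38.5 and 96.3 CPM against 24.7 and 15.9 CPM (log2 difference 2.02; adjusted p = 0.0178). FABP5, a fatty acid-binding protein whose copies make its counts uncertain, was higher too, with 18 of its 41 UMIs in 1 cell of replicate 1, where it stood at 23.3 CPM without that cell against 32.8 and 34.0 CPM in comparison cells. The amino acid transporters SLC7A5 and SLC7A1 were lower, SLC7A5 at 49.5 and 16.6 CPM against 177 and 126 CPM (log2 difference -2.17; adjusted p = 0.00162) and SLC7A1 by a log2 difference of -1.45, as was the lactate carrier SLC16A1 (log2 difference -1.19; adjusted p = 0.0543 without the block). Of 15 imprinted growth genes tested, DLK1 and NNAT were higher and 0 lower, with NNAT at 974 and 1741 CPM against 891 and 726 CPM (adjusted p = 0.0189, and 0.28 without the block).

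Calls of ribosomal protein genes, and of the 4 glycolysis genes that passed, varied with the setting. Of 81 ribosomal protein genes tested, 52 were higher and 0 lower. With edgeR the count was 0 without the block, 0 within cells under 10% ribosomal share and 0 within cells of 10% or more, where 2, 0 and 3 were higher and 0, 11 and 2 lower at an unadjusted p under 0.05. DESeq2 called 35 higher over all cells. Against comparison cells matched on total UMIs edgeR called 0, with 0 higher and 11 lower at an unadjusted p under 0.05. In cells without cycling genes it also called 0. It called 1 higher with 1 or more RSPO2 UMIs and 75 with 3 or more. Against comparison cells matched on ribosomal share, edgeR called 10 higher and 0 lower, with 28 higher and 0 lower at an unadjusted p under 0.05. Of 23 glycolysis and hypoxia genes tested, TPI1, GAPDH, ENO1 and LDHA were higher, GAPDH at 1464 and 1664 CPM against 863 and 1115 CPM (log2 difference 0.81; adjusted p = 8.68e-04), and edgeR called 0 of the list without the block and on either side of the 10% division, with 4, 0 and 3 higher at an unadjusted p under 0.05. Against comparison cells matched on ribosomal share, 4 of 19 glycolysis and hypoxia genes tested were higher, and DESeq2 called 3 over all cells. The share of all genes called with that matching is not given here, so these counts of 10 and 4 lack a background. Against comparison cells matched on total UMIs edgeR called 0 of 19 glycolysis and hypoxia genes, with 3 higher at an unadjusted p under 0.05. In cells without cycling genes it called 0 of 21. The share over all genes is also not given here for total UMI matching, cells without cycling genes or other RSPO2 thresholds. RSPO2 cells under 10% ribosomal share numbered 17 of 28 and 16 of 40. LMX1A was at 335 and 645 CPM in them against 221 and 218 CPM in RSPO2 cells of 10% or more, and RSPO3 at 1330.0 and 629.8 CPM against 967 and 1348 CPM, so both genes were present on both sides of that division.

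GFP, a transgene row of the table, stood at 1751 and 1979.9 CPM in RSPO2 cells and 1626 and 2111 CPM in comparison cells, with overlapping replicates (log2 difference 0.14, SE 0.11; adjusted p = 0.555). It was found in 57 of 68 RSPO2 cells. Which cells carried the transgene is not stated in the labels. GFP stood at 659 and 375 CPM in RSPO2 cells under 10% ribosomal share and at 2742 and 2437 CPM in those of 10% or more. Against comparison cells without FOXA2 or SHH its log2 difference was 0.92 (adjusted p = 2.66e-04), and against comparison cells matched on total UMIs it was -0.34 (adjusted p = 0.0446), so its direction turned with the choice of comparison cells.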

How the data were processed

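Whole-embryo cell suspensions of 2 replicates were profiled by droplet-based 3′ RNA sequencing (10x Genomics). The deposited values are raw counts of UMIs per gene and cell with no normalization, in a single table of 17846 symbols, 499 of them with no count; cells are columns, matched to their replicate by the sample number in the column name, and 0 columns were left unmatched. Per the submitters' processing notes, Cell Ranger, R 4.1.2, Seurat 4.3.0 and the genome build bosTau9 were used; no source used here gives the Cell Ranger version, the annotation or the filters. The libraries held 11182089 and 15427708 UMIs.

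Counts were summed per class and replicate and tested with edgeR 4.0.16 (R 4.3.3): TMM, filterByExpr, robust quasi-likelihood test with 1 residual degree of freedom per gene (median prior 12.9), with the replicate entering as a blocking term. P-values were adjusted by Benjamini-Hochberg across every gene tested, with a threshold of 0.05. The classes of a replicate come from 1 suspension, which pairs the sums; their deviations from the class means correlated at 0.399 over 4556 genes of 50 CPM or more. RSPO2, SOX2 and the 5 neuronal genes were left out of the tested genes. DESeq2 1.42.0 was an alternative. Ribosomal share is over 82 genes. Intervals are exact binomial (Clopper-Pearson) and, like the limit of 3 UMIs for a count of 0, cover counting error only. Thinning used a fixed seed, in Python 3.11.15; doublets were called with Scrublet in scanpy 1.11.5 at an assumed rate of 0.06, which marked 3 of 4359 cells, too few to count as working. The fit was tested on simulated counts, with 50 genes changed by each size. It recovered 76% of genes raised in RSPO2 cells by a log2 difference of 1 but 18% of those lowered by as much. At a log2 difference of 2 it recovered 100% and 90%, and it made 6 false calls. Lower genes were thus harder to call than higher ones. Of the symbols, 17337 were found in a RefSeq table of another assembly, used for names only.

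The members and lists were chosen with earlier results of these data known. Named genes are the 15 highest and 12 lowest by log2 difference among called genes with 30 or more UMIs in the higher class and the same direction in both replicates, leaving out unnamed, mitochondrial and ribosomal protein genes, and the 4 largest differences of each list. Other list members that passed, the choroid plexus list, and MAP2, ADAMTS3, ZNF521, PPARGC1A, CADM2, CLSTN2 and FOXP2 were chosen after their values were seen. Some genes that the rule names are not reported here. Alternatives changed the test, block, normalization, filter, RSPO2 threshold, comparison cells, ribosomal share and cycling cells; leaving out doublets, leaving out comparison cells with FOXA2 or SHH, and matching on ribosomal share were chosen after seeing the data.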

Additional observations from a re-analysis of the deposited data

How the results depend on the processing

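Of the genes higher in RSPO2 cells than in RSPO2-free SOX2 cells (383) and the genes lower in RSPO2 cells than in RSPO2-free SOX2 cells (152), DESeq2 called 205 and 28, all shared with edgeR. With no replicate block, edgeR called 164 and 61, all shared with the blocked fit (the pairing of the classes by replicate comes from their shared suspension). Counts with RLE size factors stayed within 1.5 times (479 and 212). With no filter on low counts 337 were lower, with no limit on neuronal genes in comparison cells 282 were lower, and with RSPO2 cells limited to those with SOX2 238 were lower. A threshold of 3 RSPO2 UMIs gave 591 and 347, comparison cells matched on total UMIs 208 and 92, cells under 10% ribosomal share 134 and 38, cells of 10% or more 129 and 64, cells without cycling genes 114 and 42, and comparison cells without FOXA2 or SHH 831 and 388. The cause of these shifts was not tested, except that the matched and divided sets hold fewer cells and fewer genes tested. The share of RSPO2 cells was 2.34% at 1 or more RSPO2 UMIs, 1.14% at 3 or more and 1.73% with no limit on neuronal genes, and leaving out a replicate gave 1.44% to 1.65%.

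Single genes turned direction as follows: COL3A1 to 1.22 with 1 or more RSPO2 UMIs; TPI1 to -0.0083, LDHA to -0.0355, ENO1 to -0.0061, GAS1 to -7.22, FABP5 to -1.94, ID3 to -0.38 and VIM to -0.17 under 10% ribosomal share; SOX6 to 0.16 against comparison cells without FOXA2 or SHH; VIM to -0.0902 in cells without cycling genes; and GFP to -0.34 against comparison cells matched on total UMIs. The GAS1 value is of the kind fitted where a class holds almost no UMI, and is not interpretable as a size. The cause of these turns was not tested. Leaving out a replicate left no residual degrees of freedom, so genes got a value with no test and counts got none. Of the called genes named, 0 turned direction, but this was fixed in advance, since every called gene moved the same way in both replicates. Of the genes checked, 19 without replicate 1 and 34 without replicate 2 moved by more than the spread. Depth limits the genes with 0 to 3 UMIs in RSPO2 cells most.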

Other observations

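Of 22 genes induced by tissue dissociation, FOS was higher, at 551 and 455 CPM against 267 and 298 CPM (edgeR adjusted p = 0.00328, and 0.0563 without the block), and 0 were lower. At an unadjusted p under 0.05, edgeR had 5 higher and 0 lower, beside 1106 and 897 of all 11722 genes tested. DESeq2 had 2 higher and 0 lower at that threshold. Against comparison cells without FOXA2 or SHH, 4 of 21 tested passed as higher, beside 7.83% of all genes, and without the block 0 of 22 passed. The 6 trophoblast markers summed to 226 and 306 CPM against 371 and 314 CPM in comparison cells, with PAG2, PAG8, PRP1 and TKDP4 at 0. The 5 erythroid markers summed to 655 and 485 CPM against 638 and 630 CPM, with ALAS2 and HBA at 0.

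RSPO2 cells with a TTR UMI (4 and 10 cells) were set beside those without (24 and 30), with no test. RSPO3 stood at 2423 and 1459.7 CPM in cells with TTR against 960.2 and 1055 CPM in the others, higher in both replicates. LMX1A stood at 404 and 279.9 CPM against 257 and 328 CPM, in opposite directions in the replicates. Median depths were 5230.0 and 11009.5 UMIs with TTR and 6078 and 6518.5 without, and the part of depth was not tested. DKK2, a WNT antagonist, had 8 UMIs in 3 RSPO2 cells of replicate 1 and 0 in replicate 2, and did not pass the filter on low counts.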
